A study of Mus musculus with 15 samples.

Results

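The genes described here encode the machinery that docks, primes, fuses and recovers synaptic vesicles in a nerve terminal. They are the 35 genes of a fixed list of presynaptic vesicle and release proteins, matched by symbol to the 24346 genes of a table of FPKM values (fragments mapped to a gene, per length of its transcript and per size of the library). All 35 symbols were found. The samples were 15 RNA-seq libraries from mouse brain cells of the C57BL/6 strain, read as pairs of 150 bases. They comprised astrocytes (D0), chemically induced neurons on day 4, day 8 and day 16 of an in vitro time course (D4, D8 and D16), and a comparison group labelled primary neurons (PN), with 3 libraries in each group. The labels used here name no compound, age or brain region, and leave unstated whether replicates are separate cultures. P-values therefore reflect only how far these libraries differ from one another, which may be technical spread.

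In a nerve terminal, transmitter is stored in small vesicles whose membrane carries transport, tethering and fusion proteins. Vesicles are clustered by synapsins, are tethered and primed at the active zone by Rab3, RIM and Munc13 proteins, and fuse when the vesicle SNARE synaptobrevin zips onto the plasma membrane SNAREs syntaxin and SNAP-25. Complexins clamp and then assist that fusion, the SNAP adaptors and NSF take the spent SNARE complex apart, and dynamin with its partners retrieves the membrane. Several of these proteins come as paralogs with different tissue distributions, so both the level of a family and the member that supplies it can differ between cell types.

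The group labels were read against marker genes. The astrocyte genes Gfap and Aqp4 averaged 559.6 ± 239 and 83.2 ± 49.5 FPKM at D0 (mean ± SD, n = 3 here and below) and 4.22 ± 6.68 and 0.391 ± 0.191 at D16, while PN still held 30.3 ± 11.3 and 6.53 ± 4.69. The neuronal tubulin gene Tubb3 averaged 15.7 ± 14.6 FPKM at D0, 168 ± 15.9 at D16 and 1660.0 ± 35.9 in PN. The dendritic microtubule gene Map2 averaged 22.3 ± 9.69 FPKM at D0, 30.9 ± 4.43 at D16 and 216 ± 31 in PN. Summed over 10 neuronal markers, libraries held 1052 to 1218 FPKM at D16 and 4480 to 5240 in PN, with Tubb3, Stmn2 and Uchl1 the main contributors. Of the 10 markers, 7 were called lower at D16 than in PN and 3 were not called (Nefl, Nefm and Elavl3). The neurofilament gene Nefl averaged 155 ± 66.7 FPKM at D16 and 105 ± 48.8 in PN. Depth relative to one another, read from the steps of low FPKM values, ran from 0.71 to 2.04, with PN at 1.71 to 2.04 and D16 at 0.75 to 1.1. These steps give no absolute depth. The libraries with the lowest mean correlation within their groups were D16 replicate 2 and PN replicate 3.

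Changes are differences in log2(FPKM + 1), given ± SE, so fold changes of weakly expressed genes are understated. A call was made when limma's adjusted p was below 0.05 and the change was at least 1, among the genes with 1 FPKM or more in 3 or more libraries. Of the 35 members, 34 were tested, and the exception was Cplx3, a complexin of ribbon-type synapses, at 0 to 0.887 FPKM over the 15 libraries. The share of the PN level is the mean FPKM of a group as a percent of the mean FPKM in PN.

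The promoters of 4 members are shown first, because their genes span the range of the result at D16. Cplx1 reached 88.8% of its PN level and Sv2c passed its PN level, while Rims1 stayed at 14.7% and Sv2b at 1.59%. Each sequence is the 250 bases before the annotated start in RefSeq (build GRCm38.p6). It is written 5′ to 3′ on the gene's strand, here the minus strand for all 4, and overlaps no annotated exon of that gene. Only for Rims1 were the bases after the start not found in an annotated transcript of the gene. Capitals mark E-boxes with the letters CAGNTG, the kind of motif bound by proneural factors. The windows are chr5:108550028-108550277 for Cplx1, chr13:96132578-96132827 for Sv2c, chr1:22806159-22806408 for Rims1, and chr7:75309263-75309512 for the most upstream of the 4 listed starts of Sv2b.
Cplx1: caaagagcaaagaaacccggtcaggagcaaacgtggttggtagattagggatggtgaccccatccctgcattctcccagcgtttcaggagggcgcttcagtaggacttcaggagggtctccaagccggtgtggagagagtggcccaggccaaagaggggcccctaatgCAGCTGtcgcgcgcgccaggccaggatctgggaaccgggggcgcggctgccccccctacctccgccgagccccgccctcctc
Sv2c: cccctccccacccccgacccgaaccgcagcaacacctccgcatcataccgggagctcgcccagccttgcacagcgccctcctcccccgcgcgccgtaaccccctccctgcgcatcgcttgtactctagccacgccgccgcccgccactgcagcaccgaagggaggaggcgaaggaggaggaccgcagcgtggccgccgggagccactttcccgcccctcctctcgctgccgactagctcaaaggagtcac
Rims1: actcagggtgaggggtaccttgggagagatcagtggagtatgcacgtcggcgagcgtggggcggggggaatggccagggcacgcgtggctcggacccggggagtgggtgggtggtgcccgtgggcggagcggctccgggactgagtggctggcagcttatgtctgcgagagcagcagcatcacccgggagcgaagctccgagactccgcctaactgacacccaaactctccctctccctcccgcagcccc
Sv2b: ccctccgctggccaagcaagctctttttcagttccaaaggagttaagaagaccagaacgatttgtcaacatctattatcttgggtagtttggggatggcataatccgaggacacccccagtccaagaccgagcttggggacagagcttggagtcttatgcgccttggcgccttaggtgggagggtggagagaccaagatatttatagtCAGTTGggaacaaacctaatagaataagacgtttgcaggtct
Cplx1 and Sv2b each held 1 E-box in these windows, and Sv2c and Rims1 held 0. GC content was 64.8% for Cplx1, 70.8% for Sv2c, 68.0% for Rims1 and 48.8% for Sv2b. RefSeq listed windows for 28 of the 35 members. The motif counts covered the 250 bases before each start. An E-box on either strand was found in 19 of 36 member windows (52.8%), against 44.8% of all 32851 windows. The cAMP response element TGACGTCA was found in 2 of the 36 (5.56%), those of Syn1 and Sh3gl2, against 508 of all windows (1.55%). Only the letters were matched, so these are descriptions of sequence and not of binding. Snap25, Vamp2, Vamp3, Syn3, Doc2b, Rims2 and Bin1 had no entry.

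The machinery was low at D0, and its median share of the PN level was higher at each later time point without reaching that of PN. The median share of the PN level over the 34 members with at least 1 FPKM in PN was 3.65% at D0, 24.9% at D4, 36.4% at D8 and 54.3% at D16. Over all 12130 genes with at least 1 FPKM in PN, the same medians were 100.1, 95.2, 95.1 and 94.6%. Medians computed from single libraries ran from 20.9 to 31.5% at D4, 27.7 to 43.3% at D8 and 49.6 to 53.2% at D16. Those of D4 and D8 overlapped. At D16, 3 members stood under 10% of the PN level (Cplx2, Sv2b and Rph3a), 13 between 10 and 50%, 14 between 50 and 150%, and 4 above 150% (Snap23, Vamp3, Sv2c and Rims2). The members thus ran from 1.59 to 709% of the PN level at D16, and the other presynaptic genes described below from 7.82 to 654%. The spread over all genes was not computed. In bulk RNA, a lower share of cells expressing a gene and less RNA per cell cannot be told apart.

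**Figure D1:**
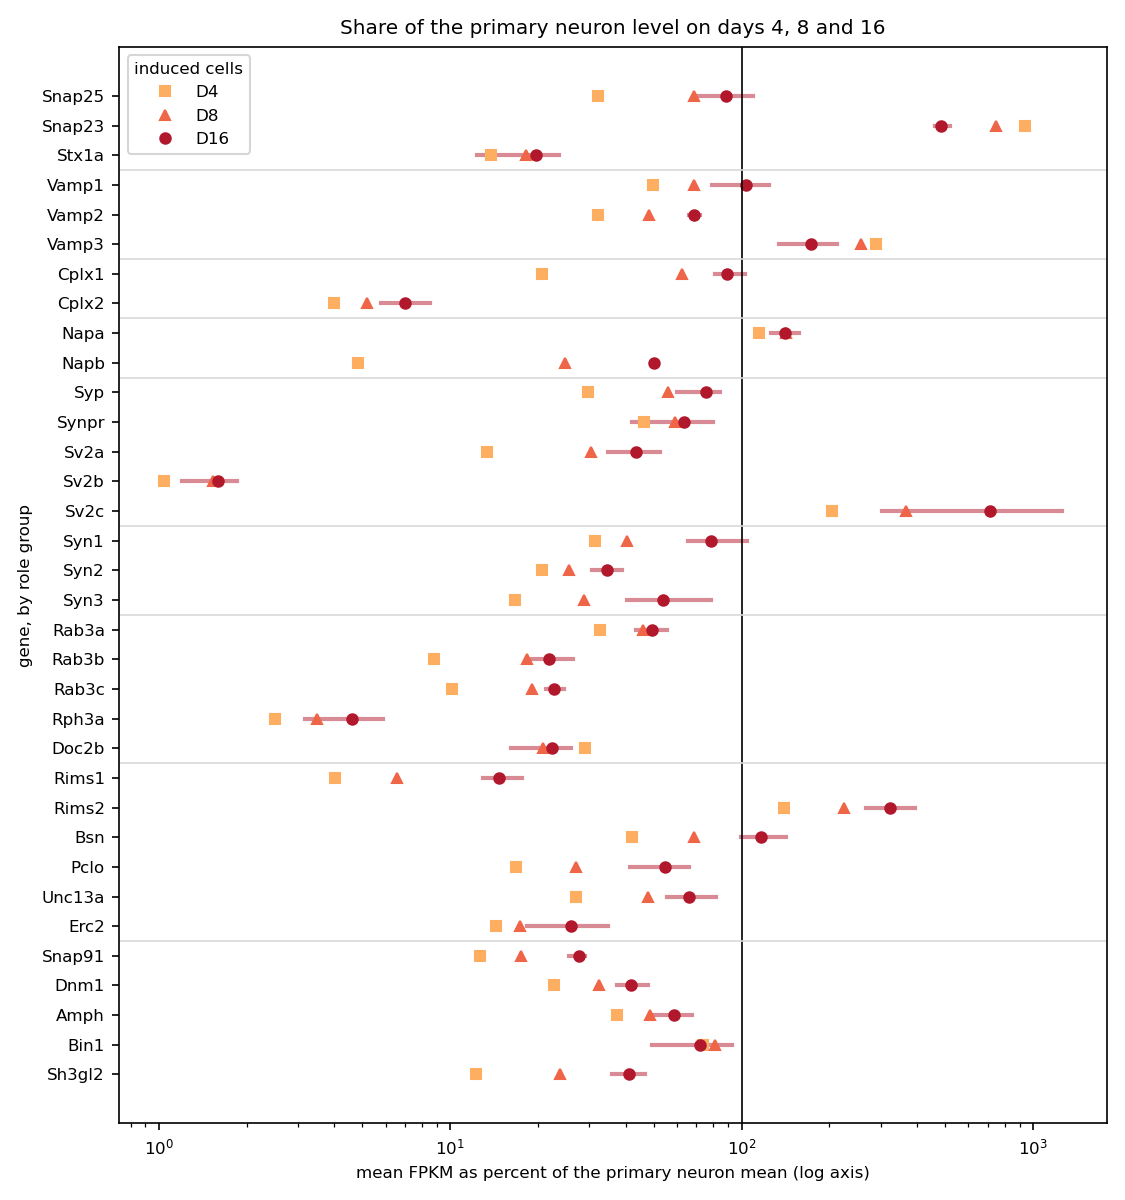
Mean level of each of 34 members in induced cells on days 4, 8 and 16 as a percent of the mean in primary neurons (horizontal log axis), ordered by role. Cplx2, Sv2b and Rph3a stay under 10% at day 16, while Snap23, Vamp3, Sv2c and Rims2 lie above 150%.

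Between D0 and D4, 18 of 34 members were called higher (52.9%) and 1 lower, against 27.8% called among all 13983 genes tested (13.6% higher and 14.2% lower). At D8 the counts against D0 were 22 higher and 1 lower (background 32.4%, with 15.5% higher and 16.9% lower), and at D16 they were 25 higher and 2 lower (35.3%, with 16.6% and 18.7%). PN against D0 gave 29 higher and 2 lower (41.0%, with 17.1% and 23.9%). The median change of the members was 1.12 at D4, 1.91 at D8, 2.37 at D16 and 3.64 in PN, where the median over all genes tested was -0.0080, 0.0023, -0.0063 and -0.12. These comparisons share the D0 libraries. Vamp1, Napb, Sv2a and Rims2 were called higher than D0 at D8 but not at D4, and Rims1, Pclo and Erc2 at D16 but not at D8. The D8 call of Vamp1 was lost in 4 of 24 alternative settings: equal totals, quantile normalization, without D0 replicate 2 and without D8 replicate 1. Vamp1 was not tested in another of the 24, the filter at 5 FPKM. Rims1, Pclo and Erc2 encode active zone proteins. At D4 the call of Snap91 was lost in 4 settings, each leaving out 1 library (D0 replicates 2 and 3, D4 replicates 1 and 3). Cplx2 was called lower than D0 on all 3 days, and Vamp3 on D16.

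Against PN, 26 members were called lower and 2 higher at D4 (background 37.9% of all genes, with 16% lower and 22.0% higher), 22 lower and 4 higher at D8 (36.0%, with 15.5% and 20.5%), and 15 lower and 3 higher at D16 (34.6%, with 15% and 19.6%). The median change of the members against PN was -1.78 at D4, -1.36 at D8 and -0.78 at D16, where the median over all genes tested was 0.11, 0.084 and 0.058. The number called at D16 depended on single PN libraries: 15 in all without PN replicate 2 and 21 without PN replicate 3. At D8 the calls of Rims2 (5 of 24 settings), Amph, Unc13a and Vamp2 (3 each) were lost in some alternatives. Members called lower at D16 were Stx1a, Cplx2, Sv2a, Sv2b, Syn2, Rab3a, Rab3b, Rab3c, Rph3a, Doc2b, Rims1, Erc2, Snap91, Dnm1 and Sh3gl2. Those called higher were Snap23, Sv2c and Rims2. Each of the 5 Rab3 and effector genes was in the first group, and no vesicle SNARE was in either. Sv2b and Rph3a passed the filter only with their PN libraries, which favoured a call lower than PN in advance.

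**Figure D2:**
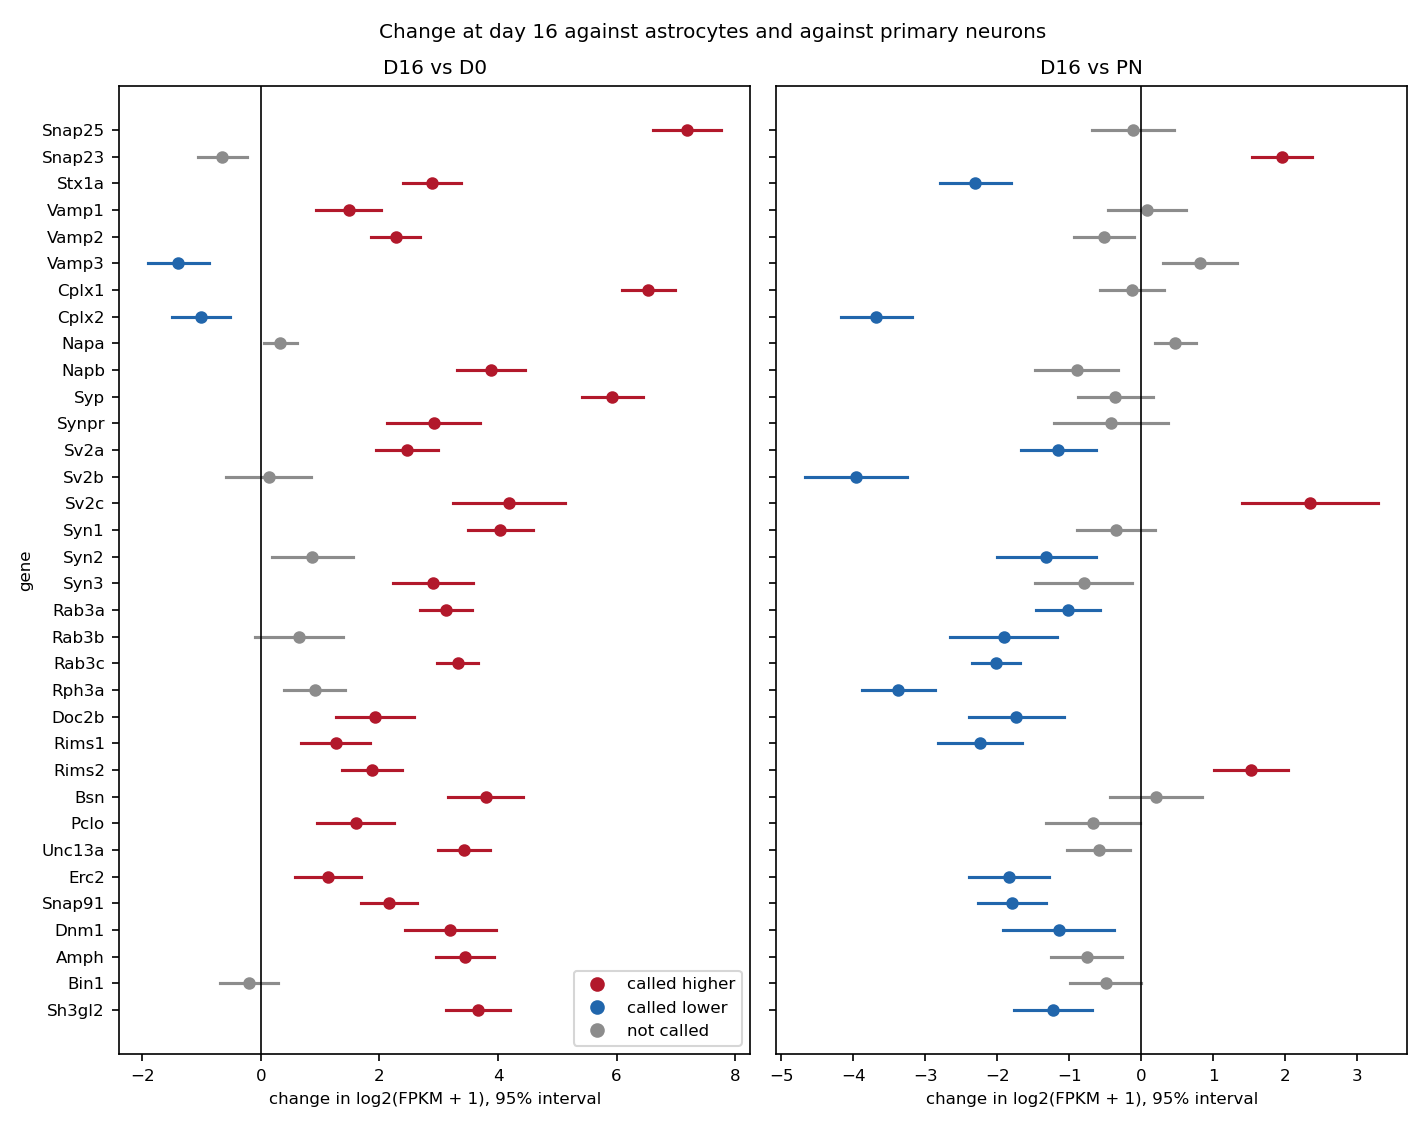
Change in log2(FPKM + 1) of the 34 tested members at day 16 against astrocytes (left) and against primary neurons (right); bars are 95% intervals and colours mark calls. Snap25, Cplx1 and Syp show the largest rises on the left and intervals that include 0 on the right, while Cplx2, Sv2b and Rph3a lie lowest on the right.

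Within the induced series, members were called between D4 and D8 and between D4 and D16, but not between D8 and D16. From D4 to D8, 4 members were called and all were higher (background 2.01% of all genes, with 0.501% higher and 1.51% lower): Napb (2.08 ± 0.27, adjusted p = 5.3e-04), Cplx1 (1.58 ± 0.21, adjusted p = 6.3e-04), Sv2a (1.11 ± 0.24, adjusted p = 0.019) and Snap25 (1.09 ± 0.27, adjusted p = 0.036). Only Napb and Cplx1 kept the call when libraries were rescaled to equal totals, and the call was lost in 8 of 24 alternative settings for Snap25 and in 5 for Sv2a. From D8 to D16, limma called 0 of 34 members (background 0.0286%, with 0.0215% higher and 0.00715% lower). The median change of the members was 0.42, where the median over all genes tested was -0.0029. From D4 to D16, 15 members were called and all were higher (background 7.20%, with 2.94% higher and 4.26% lower). The largest of these changes were in Napb (3.08 ± 0.27), Cplx1 (2.08 ± 0.21), Sh3gl2 (1.61 ± 0.25) and Sv2a (1.60 ± 0.24). In this comparison the call was lost in 7 of 24 alternative settings for Sv2c and in 5 for Pclo. The filter at 5 FPKM left Pclo untested. Doc2b was the member whose share fell from D4 to D16 among those called higher than D0, at 29, 20.9 and 22.4% on the 3 days, and it was not called between them.

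Of the plasma membrane SNAREs, Snap25 and Stx1a rose by D16 and Snap23 was not called against D0. Snap25 (chromosome 2, start 136713439, end 136782428), the neuronal SNARE that supplies a pair of helices to the fusion complex, stood at 0.516, 0.0324 and 0 FPKM at D0, 75.2, 52.3 and 61.1 at D4, 145, 123 and 135 at D8, 168, 135 and 213 at D16, and 184, 283 and 118 in PN. It was near 0 in all astrocyte libraries and overlapped PN at D16, with the widest spread in PN. The change was 7.19 ± 0.27, adjusted p = 2.7e-11 against D0 and -0.12 with an interval from -0.69 to 0.46 against PN. Without D16 replicate 2 or PN replicate 2 the latter value turned positive, at 0.047 and 0.20, and was not called. Stx1a, the syntaxin of the neuronal fusion complex, stood at 2.36, 1.69 and 1.77 FPKM at D0, 15.3, 14.2 and 15.6 at D4, 20.6, 19.2 and 19.7 at D8, 25, 13.5 and 25.7 at D16, and 120.4, 132 and 74.9 in PN. Every D16 library lay below every PN library (-2.31 ± 0.23, adjusted p = 6.2e-07), and the share was 19.6 ± 6.32%. Snap23, the SNAP-25 paralog of most non-neuronal cells, stood at 22, 18.8 and 22.8 FPKM at D0, 23.5, 25.8 and 27.6 at D4, 16.4, 23.4 and 21.2 at D8, 12.7, 12.5 and 14.1 at D16, and 1.61, 2.85 and 3.71 in PN. It lay below every D0 library at D16 but remained above every PN library (1.96 ± 0.19, adjusted p = 5.5e-07), at 481% of the PN level.

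None of the 3 vesicle SNAREs was called between D16 and PN, while 2 were called higher and 1 lower at D16 than at D0. Vamp2 (synaptobrevin 2), the main vesicle SNARE of brain synapses, stood at 38.8, 42.5 and 56.8 FPKM at D0, 123, 84 and 108 at D4, 172, 138 and 161 at D8, 235, 215 and 222 at D16, and 362, 372 and 245 in PN. All D16 libraries lay above all D0 and below all PN libraries. The rise over D0 was 2.28 ± 0.19, adjusted p = 1.0e-07. Against PN the change was -0.52 ± 0.19, adjusted p = 0.031, which passed the p threshold but not the minimum change, and the share was 68.7 ± 3.2%. Vamp1, its paralog of motor and brainstem terminals, averaged 0.651 ± 0.279 FPKM at D0, 3.6 ± 0.798 at D16 and 3.49 ± 1.72 in PN. Its rise over D0 was called (1.48 ± 0.25, adjusted p = 1.3e-04), and its small difference from PN (0.084) changed sign with the scaling: -0.0036 with equal totals and -0.17 after quantile normalization. Vamp3 (cellubrevin), the paralog of general endosomal recycling, averaged 68.7 ± 1.65 FPKM at D0, 26 ± 5.83 at D16 and 15.1 ± 7.2 in PN. It fell from D0 to D16 (-1.39 ± 0.24, adjusted p = 1.3e-04) and stayed at 173% of the PN level (0.82). It was called higher than PN with no minimum change, without PN replicate 3, and without that library and D16 replicate 2.

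Complexins gave opposite results for their main members. Cplx1 (chromosome 5, start 108518554, end 108550027) stood at 0.497, 0.342 and 0.166 FPKM at D0, 34.3, 27.5 and 23.6 at D4, 88.4, 81.9 and 87.6 at D8, 115, 112 and 142 at D16, and 144, 179.5 and 91.3 in PN. It rose at D4, again between D4 and D8, and overlapped PN at D16. The change was 6.53 ± 0.21, adjusted p = 1.4e-11 against D0 and -0.12 with an interval from -0.57 to 0.32 against PN, with a share of 88.8 ± 12.1%. Cplx2 (chromosome 13, start 54301964, end 54383923), the forebrain paralog, stood at 25.1, 20.3 and 19.8 FPKM at D0, 5.14, 8.05 and 4.62 at D4, 9.29, 7.36 and 6.32 at D8, 12.6, 9.91 and 8.58 at D16, and 121, 203 and 121 in PN. It was the main complexin of the D0 libraries, fell with induction and lay below every PN library at D16. The change was -3.68 ± 0.23, adjusted p = 5.4e-09 against PN and -1.01 ± 0.23, adjusted p = 0.0015 against D0, where the value lies at the minimum change and the call was lost in 6 of 24 alternative settings. Cplx3 averaged 0.377 ± 0.216 FPKM at D16 and 0.236 ± 0.0807 in PN and was not tested.

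In SNARE disassembly, the brain form rose and the general form was not called. Napb (beta-SNAP), the brain form of the adaptor that recruits NSF, stood at 1.38, 1.3 and 1.61 FPKM at D0, 4.95, 2.59 and 2.54 at D4, 19.8, 19 and 12.9 at D8, 34, 34.6 and 35.3 at D16, and 59.8, 104 and 44.3 in PN. Its shares of the PN level were 4.83, 24.8 and 49.9% on the 3 days, and the rise over D0 was 3.88 ± 0.27, adjusted p = 1.3e-08. The D16 libraries lay close together and below every PN library, and the change against PN was under the minimum for a call (-0.89 with an interval from -1.47 to -0.32). It was called lower with equal totals, with no minimum change, without PN replicate 3, and without that library and D16 replicate 2. Napa (alpha-SNAP), the widely expressed form, stood at 73.8, 74.6 and 69.7 FPKM at D0, 71.1, 75.4 and 79.4 at D4, 78.8, 95.9 and 105 at D8, 82.5, 103 and 90.3 at D16, and 68.4, 64.4 and 63.8 in PN. Its D16 libraries lay above all of D0 and all of PN, by less than the minimum change, and it was called in neither D16 comparison (0.33 against D0 and 0.48 against PN).

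**Figure D3:**
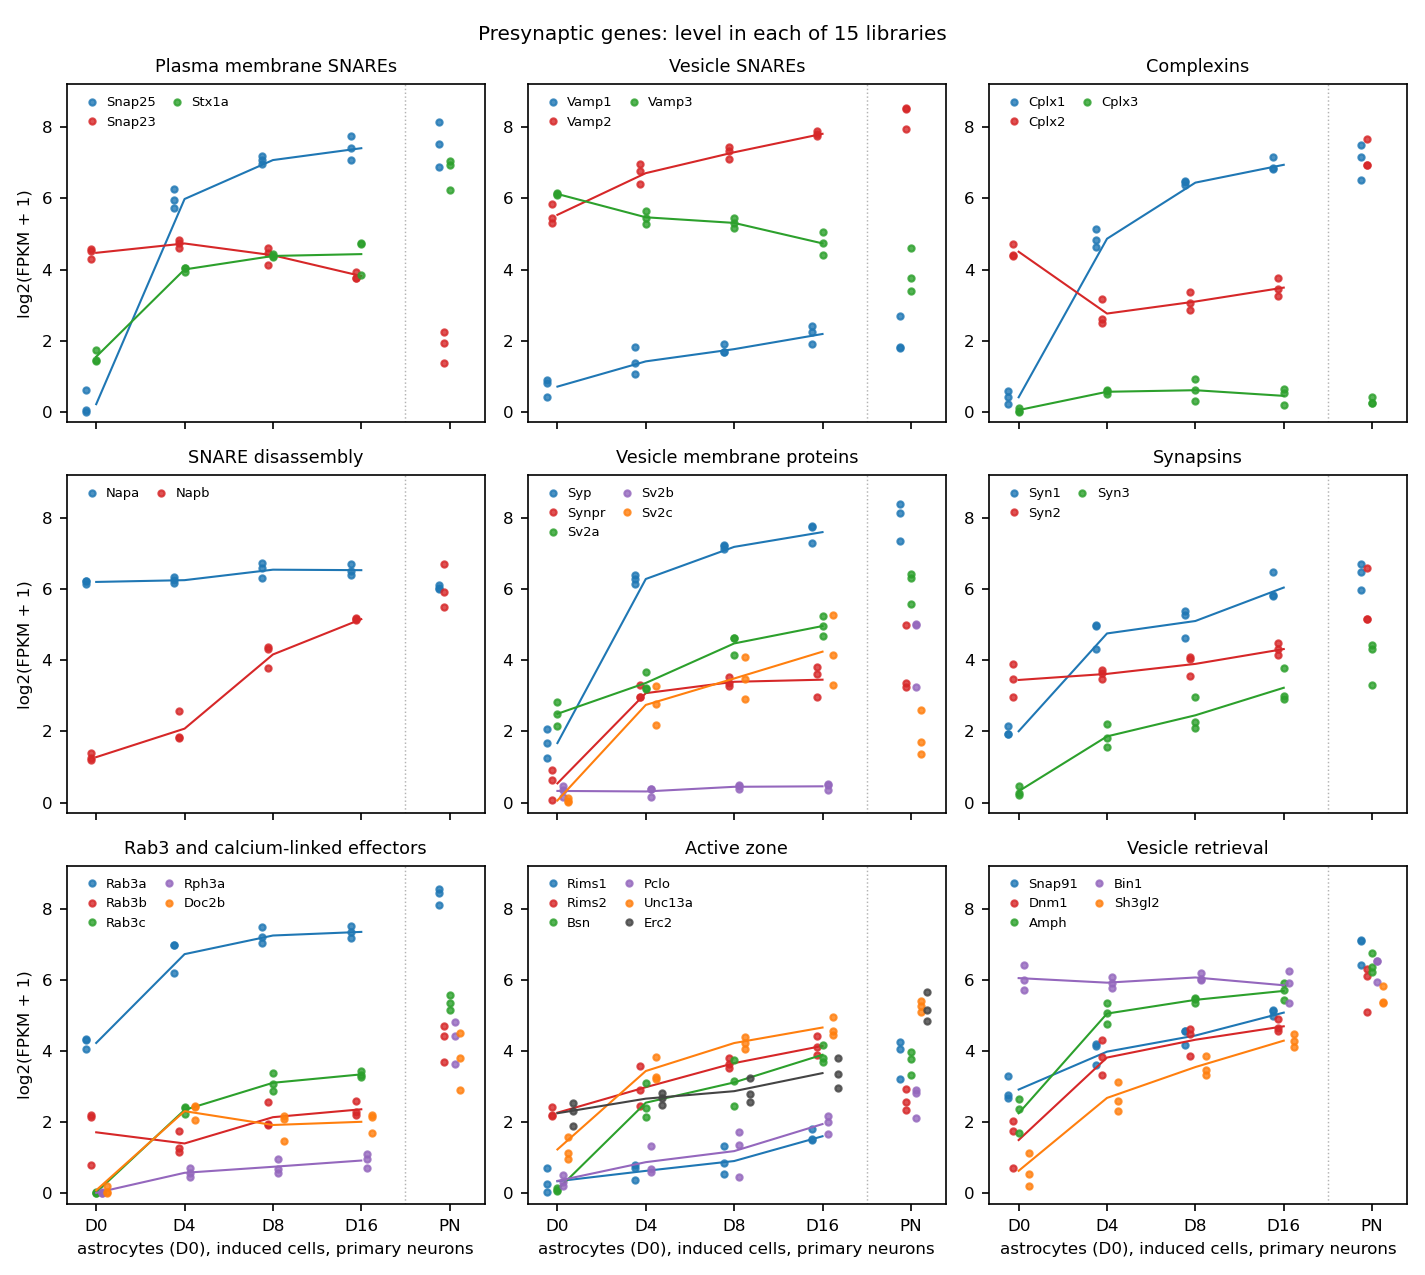
Level of the 35 members in each of the 15 libraries, by role group, as log2(FPKM + 1); each point is a library and lines join group means from astrocytes to day 16. Snap25, Syp and Cplx1 climb from low values in astrocytes to the primary neuron range by day 16, whereas Cplx2, Sv2b and Rph3a stay below every primary neuron library.

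Among vesicle membrane proteins, 4 of 5 rose by D16, and their distance from PN ranged more widely than in any other role group. Syp (synaptophysin, chromosome X, start 7638580, end 7653256), the most abundant vesicle membrane protein, stood at 2.2, 1.41 and 3.22 FPKM at D0, 83.6, 77.7 and 70.3 at D4, 138, 147 and 149 at D8, 219, 155 and 212 at D16, and 283, 334 and 161 in PN. The change was 5.93 ± 0.24, adjusted p = 7.4e-11 against D0 and -0.36 with an interval from -0.88 to 0.16 against PN, and the groups overlapped. Synpr (synaptoporin), its paralog of mossy fibres and interneurons, averaged 0.496 ± 0.416 FPKM at D0, 10.3 ± 3.14 at D16 and 16.2 ± 12.6 in PN. It was called higher than D0 (2.91 ± 0.37), and its share of 63.4% became 115% without PN replicate 2.

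The SV2 proteins, glycoproteins shared by all synaptic vesicles and the entry route of botulinum toxin A, divided by paralog. Sv2a, the most widely expressed form and the target of levetiracetam, stood at 4.6, 3.48 and 6.15 FPKM at D0, 11.6, 8.38 and 8.18 at D4, 23.9, 16.8 and 23.8 at D8, 36.8, 24.5 and 30.5 at D16, and 85.1, 78.9 and 47.3 in PN. It rose from D0 (2.47 ± 0.24, adjusted p = 5.2e-07) and lay below PN (-1.15 ± 0.24, adjusted p = 7.9e-04), a call that was lost without PN replicate 1. Sv2b (chromosome 7, start 75114894, end 75309262), the form of many glutamatergic neurons, stood at 0.278, 0.119 and 0.385 FPKM at D0, 0.302, 0.315 and 0.121 at D4, 0.399, 0.369 and 0.316 at D8, 0.407, 0.282 and 0.437 at D16, and 30.6, 31.5 and 8.53 in PN. It was not called at D16 against D0 (0.13 ± 0.33, adjusted p = 0.75), and every induced library lay below every PN library (-3.96 ± 0.33, adjusted p = 1.0e-07). Only the PN libraries reached 1 FPKM, so Sv2b passed the filter through PN alone, which favoured a call lower than PN in advance. Sv2c (chromosome 13, start 95959443, end 96132577), the form of basal ganglia and some peripheral neurons, stood at 0.0878, 0.015 and 0.0267 FPKM at D0, 5.88, 3.49 and 8.76 at D4, 6.47, 10.1 and 16 at D8, 8.96, 37.3 and 16.8 at D16, and 5.07, 2.25 and 1.58 in PN. All D16 libraries exceeded all PN libraries (2.35 ± 0.44, adjusted p = 2.9e-04), but they differed among themselves. The D16 share was 709%, 434% without D16 replicate 2 and 1097% without PN replicate 1.

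Synapsins tether vesicles to one another and to actin in the reserve pool. Syn1 and Syn3 rose by D16, and Syn2 was called only against PN. Syn1 stood at 2.82, 2.83 and 3.43 FPKM at D0, 31.1, 18.8 and 30.04 at D4, 38, 23.9 and 41 at D8, 55.4, 88.7 and 55.9 at D16, and 104, 88.8 and 62 in PN. It rose by 4.04 ± 0.26 and overlapped PN at D16 (-0.35 with an interval from -0.90 to 0.20). Syn2 stood at 6.78, 10.2 and 14 FPKM at D0, 12.3, 10.04 and 11.6 at D4, 16.1, 10.8 and 15.4 at D8, 18.8, 16.8 and 21.4 at D16, and 34.9, 95.6 and 34.6 in PN. Its D16 values lay above all of D0 (0.87 ± 0.32, adjusted p = 0.029, short of the minimum change) and below all of PN (-1.32 ± 0.32, adjusted p = 0.0023). Without PN replicate 2, the highest library, that call was lost and the share went from 34.5% to 54.7%. Syn3 averaged 0.252 ± 0.123 FPKM at D0, 8.75 ± 3.51 at D16 and 16.2 ± 6.36 in PN, rose by 2.91 ± 0.32 over D0 and was not called against PN (-0.80). It was called lower with no minimum change, without D16 replicate 2, without PN replicate 3, and without both.

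The Rab3 GTPases, which mark vesicles for docking, and their effectors gave the lowest median share of any role group at D16, 22.4% over 5 genes. Rab3a, the main Rab3 of brain vesicles, stood at 18.7, 15.6 and 19.2 FPKM at D0, 125, 72.7 and 127 at D4, 131, 146 and 179.8 at D8, 161, 144 and 184 at D16, and 372, 345 and 276 in PN. It rose over D0 (3.12 ± 0.21, adjusted p = 8.1e-09) and stayed lower than PN (-1.01 ± 0.21, adjusted p = 5.7e-04). That value lies at the minimum change, and the call was lost in 4 of 24 alternative settings. Rab3b stood at 3.4, 0.746 and 3.62 FPKM at D0, 2.4, 1.43 and 1.24 at D4, 4.93, 2.85 and 2.77 at D8, 5.06, 3.65 and 3.84 at D16, and 20.6, 25 and 12 in PN, and every D16 library lay below every PN library (-1.91 ± 0.35, adjusted p = 2.1e-04). Rab3c stood at 0.0107, 0.0364 and 0.0129 FPKM at D0, 4.36, 4.27 and 3.66 at D4, 9.36, 7.38 and 6.4 at D8, 8.65, 8.98 and 9.9 at D16, and 46.9, 34.8 and 39.7 in PN. All its induced libraries lay above D0 and below PN, with a D16 share of 22.7 ± 1.6% (-2.02 ± 0.16, adjusted p = 5.2e-08).

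Rph3a (rabphilin), a Rab3 effector with calcium-binding C2 domains, stood at 0, 0.033 and 0 FPKM at D0, 0.377, 0.484 and 0.631 at D4, 0.97, 0.50 and 0.603 at D8, 0.94, 1.16 and 0.629 at D16, and 20.6, 27.4 and 11.4 in PN. It was close to 0 in astrocytes, stayed under the minimum change at D16 (0.91 ± 0.24, adjusted p = 0.0039) and lay below every PN library (-3.37 ± 0.24, adjusted p = 1.7e-08). Rph3a was called higher than D0 at D16 with a pseudocount of 0.1, with no minimum change, and without D16 replicate 3. Outside PN it reached 1 FPKM in D16 replicate 2 alone. It thus passed the filter only with its PN libraries, which favoured a call lower than PN in advance. Its share of the PN level was 2.51, 3.49 and 4.6% on the 3 days. Doc2b, a high-affinity calcium sensor linked to spontaneous release, stood at 0.154, 0.0151 and 0.0267 FPKM at D0, 4.36, 4.44 and 3.2 at D4, 3.28, 1.8 and 3.55 at D8, 2.23, 3.58 and 3.45 at D16, and 13, 21.8 and 6.56 in PN. It rose by D4, was no higher on the later days and lay below every PN library at D16 (-1.73 ± 0.31, adjusted p = 2.0e-04).

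Active zone genes encode the scaffold at which vesicles dock. All 6 were called higher at D16 than at D0, and against PN 2 were called lower, 1 higher and 3 not at all. Rims1 (chromosome 1, start 22285972, end 22806158), the RIM scaffold that binds Rab3 and calcium channels, stood at 0.646, 0.0362 and 0.193 FPKM at D0, 0.753, 0.645 and 0.295 at D4, 1.5, 0.463 and 0.814 at D8, 1.88, 2.48 and 1.82 at D16, and 18.2, 15.7 and 8.22 in PN. It rose by D16 (1.26 ± 0.27, adjusted p = 9.1e-04) and lay below every PN library (-2.24 ± 0.27, adjusted p = 4.7e-06). Its paralog Rims2 (chromosome 15, start 39198286, end 39684372) stood at 4.34, 3.6 and 3.55 FPKM at D0, 10.9, 6.55 and 4.54 at D4, 11.6, 10.6 and 12.9 at D8, 13.9, 16.2 and 20.6 at D16, and 4.97, 6.58 and 4.12 in PN. In contrast to Rims1, every D16 library exceeded every PN library (1.53 ± 0.24, adjusted p = 5.6e-05), at 324 ± 64.8% of the PN level. Rims2 was also present at D0 at 73.4% of PN.

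Erc2 (CAST), which links RIM to the rest of the scaffold, stood at 4.87, 2.7 and 3.99 FPKM at D0, 6.01, 4.65 and 5.41 at D4, 8.52, 4.91 and 6.0 at D8, 6.84, 13 and 9.32 at D16, and 34.6, 49.9 and 27.7 in PN. It was called higher than D0 (1.13 ± 0.26, adjusted p = 0.0015), lost that call in 3 of 24 alternative settings, and lay below PN (-1.84 ± 0.26, adjusted p = 2.0e-05). Unc13a (Munc13-1), which opens syntaxin and primes vesicles, stood at 2.0, 0.967 and 1.22 FPKM at D0, 13.3, 8.67 and 8.25 at D4, 20.2, 15.6 and 17.6 at D8, 20.8, 30.4 and 22.8 at D16, and 41.3, 37.7 and 33 in PN. It rose by 3.43 ± 0.21, reached 66.1 ± 13.6% of PN, and lay below every PN library without a call (-0.59 with an interval from -1.03 to -0.15). The giant scaffold genes Bsn (bassoon) and Pclo (piccolo) differed in level: Bsn averaged 0.0762 ± 0.0365 FPKM at D0, 14.1 ± 2.7 at D16 and 12.1 ± 2.79 in PN, and Pclo 0.281 ± 0.144 FPKM at D0, 2.9 ± 0.662 at D16 and 5.31 ± 1.69 in PN. Both rose over D0 (3.79 ± 0.30 and 1.60 ± 0.31), and neither was called against PN. Pclo was called lower, and the Bsn difference from PN (0.21) became -0.11, when D16 replicate 2 and PN replicate 3 were both left out.

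Of the vesicle retrieval genes, Snap91, Dnm1, Amph and Sh3gl2 rose by D16 and Bin1 was not called. Snap91 (AP180), the neuronal clathrin assembly protein, stood at 8.9, 5.78 and 5.45 FPKM at D0, 17.3, 11.1 and 16.8 at D4, 22.7, 17 and 22.8 at D8, 30.5, 34.6 and 33.6 at D16, and 135, 138 and 85.2 in PN. All induced libraries lay between D0 and PN (-1.79 ± 0.22, adjusted p = 5.4e-06). Dnm1 (dynamin 1), the neuronal GTPase that cuts vesicles from the membrane, stood at 3.11, 0.643 and 2.35 FPKM at D0, 18.9, 8.96 and 13.2 at D4, 23.6, 13.5 and 21.2 at D8, 28.7, 22.4 and 24.1 at D16, and 67.8, 78.8 and 33.5 in PN. It rose over D0 (3.20 ± 0.36, adjusted p = 2.1e-06) and was lower than PN (-1.15 ± 0.36, adjusted p = 0.012), a call that was lost without PN replicate 2. Sh3gl2 (endophilin A1), which bends the membrane and recruits dynamin, stood at 1.2, 0.165 and 0.461 FPKM at D0, 7.77, 3.99 and 5.06 at D4, 13.7, 9.0 and 9.997 at D8, 21.2, 16.3 and 18.6 at D16, and 40.9, 56.4 and 39.5 in PN. It rose by 3.66 ± 0.25 and lay below PN (-1.23 ± 0.25, adjusted p = 6.4e-04).

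Amph (amphiphysin), which couples dynamin to clathrin, averaged 3.94 ± 1.56 FPKM at D0, 51.2 ± 8.5 at D16 and 87.5 ± 17.7 in PN. It rose over D0 (3.44 ± 0.23) and lay below every PN library by less than the minimum change (-0.76). Bin1 (amphiphysin 2), its more widely expressed paralog, stood at 85.4, 62.6 and 52.1 FPKM at D0, 58.9, 53.6 and 67.4 at D4, 63.2, 63.8 and 71.9 at D8, 75.7, 40.2 and 59.7 at D16, and 91.5, 92.3 and 60.7 in PN. Its D16 libraries overlapped both D0 and PN, and it was called in neither D16 comparison (-0.20 with an interval from -0.69 to 0.29 against D0). The sign of that small difference changed after quantile normalization (0.0013) and without D16 replicate 2 (0.041).

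The share of a family's summed FPKM held by each paralog is not changed by rescaling a library. It was compared between D16 and PN for the member with the highest PN mean in each of 10 families of listed members, by a two-sided exact permutation test of 3 against 3 libraries, whose smallest possible p is 0.1. That smallest p was reached in 7 of the 10 families (Benjamini-Hochberg adjusted p = 0.14), so none could pass the threshold in this design. How often paralog families outside the list would reach it was not computed. Each family here holds only paralogs among the 35 genes, so a share is not one of all related genes measured. The pair of Rims1 and Rims2 differed most: Rims1 held 11.1 ± 2.7% of its FPKM at D16 and 71.9 ± 6.1% in PN. The short RIM genes Rims3 and Rims4, outside that sum, averaged 15.8 ± 1.97 and 10.3 ± 1.48 FPKM at D16 and 17.5 ± 3.84 and 29.1 ± 9.56 in PN. Cplx2 held 7.90 ± 2.11% of complexin FPKM at D16 and 51.8 ± 5.7% in PN. Over the course of induction the complexins exchanged places, with Cplx1 at 1.47% of the family at D0, 81.5% at D4, 91.3% at D8 and 91.8% at D16. In PN the complexins were near even, with Cplx1 at 48.1 ± 5.8%, and Cplx1 was the higher of them in PN replicate 1. Between Rims1 and Rims2, the one that leads at D16 is thus not the one that leads in PN, and Cplx1 led the complexins at D16 but not clearly in PN.

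Snap25 held 0.82% of Snap25 and Snap23 FPKM at D0, 92.8 ± 1.2% at D16 and 98.4 ± 1.2% in PN. Vamp2 held 39.6% of the FPKM of Vamp1, Vamp2 and Vamp3 at D0, 88.4 ± 1.8% at D16 and 94.2 ± 3.3% in PN. In both of these sums the neuronal paralog led at D16 as it did in PN, with a somewhat smaller share. Vamp4 and Vamp8, outside the latter sum, averaged 8.15 ± 1.61 and 78.1 ± 23 FPKM at D0 and 38.9 ± 5.68 and 15.2 ± 8.08 at D16. Napb held 27.5 ± 2.1% of Napa and Napb FPKM at D16 and 49.8 ± 10.8% in PN. Syn1 held 70.0 ± 4.4% of synapsin FPKM at D16 and 56.0 ± 11.5% in PN, and Rab3a 92.4 ± 0.6% of Rab3 FPKM against 84.7 ± 0.5%. The exact p was above 0.1 for Syp (95.1 ± 0.8% against 94.4 ± 2.7%, exact p = 0.8), Sv2a (61.0 ± 20.3% against 74.3 ± 7.0%, exact p = 0.4) and Amph (47.2 ± 10.7% against 51.9 ± 4.3%, exact p = 0.5). In the SV2 family, Sv2c held 38.2 ± 20.5% at D16 and 2.98% in PN, and Sv2b 0.75% and 22.7%. How reads shared by paralogs were assigned is not given in the sources used here.

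**Figure D4:**
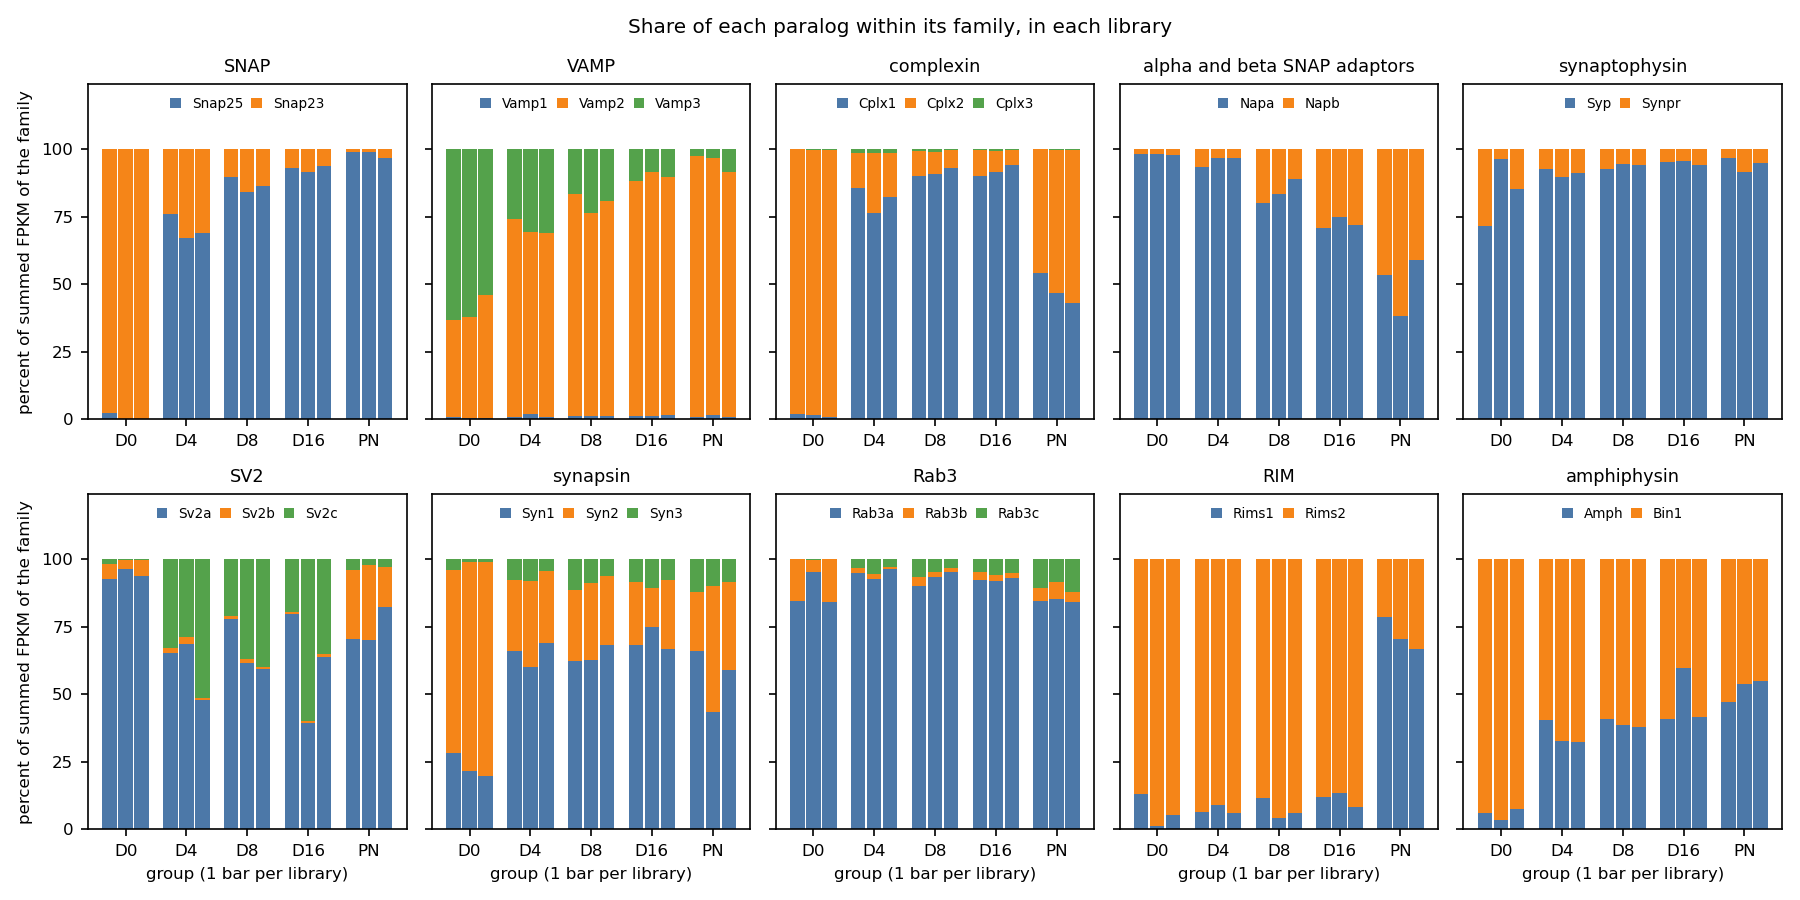
Percent of the summed FPKM of each paralog family held by each member, in the 15 libraries (one bar per library; D0, D4, D8, D16 and PN). The complexin bars pass from Cplx2 in astrocytes to Cplx1 in induced cells, and the RIM bars are mostly Rims2 at day 16 and mostly Rims1 in primary neurons.

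The other genes of the presynaptic pathway were taken from a list of 60 symbols, of which 56 were tested. The untested ones were Cplx4, Unc13c, Sncg and Vamp7, and Vamp7 was listed at 0 in every library. Against D0, 29 of the 56 were called higher (51.8%) and 9 lower (16.1%) at D16, where the background was 16.6% and 18.7%. In PN the counts were 30 and 8 (background 17.1% and 23.9%). Against PN, 9 were called higher (16.1%) and 17 lower (30.4%) at D16, where the background was 19.6% and 15%. The shares called lower than D0 and higher than PN thus lay near or below the background. Their median share of the PN level was 55.1% at D4, 60.6% at D8 and 75.5% at D16, against 94.6% for all genes at D16. Sncb (beta-synuclein) showed the largest rise at D16 (5.29 ± 0.18, adjusted p = 1.5e-11), followed by Cadps, a priming factor of dense-core vesicles (4.11 ± 0.38), and Rims4, a short RIM protein (3.49 ± 0.22). The largest falls were in Vamp8, an endosomal and granule SNARE (-2.39 ± 0.37), the endophilin B gene Sh3glb1 (-1.70 ± 0.15) and Tprgl (-1.39 ± 0.14).

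Compared with PN, among the lowest of these genes at D16 were Atp6v1g2, a neuronal subunit of the vesicular proton pump (-3.39 ± 0.31, adjusted p = 2.7e-07), and Ppfia2 (liprin alpha 2, -2.69 ± 0.20). The highest were Syngr2 (the non-neuronal synaptogyrin, 2.37 ± 0.21), Vamp8 (1.91 ± 0.37) and the widely expressed syntaxin Stx4a (1.89 ± 0.12). These 3, of 9 called higher, are genes of general rather than synaptic membrane traffic. That does not hold for every gene above PN: the priming factor Cadps stood at 230 ± 70.4% of its PN level at D16. The difference between this list and the 35 members was not tested.

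**Figure D5:**
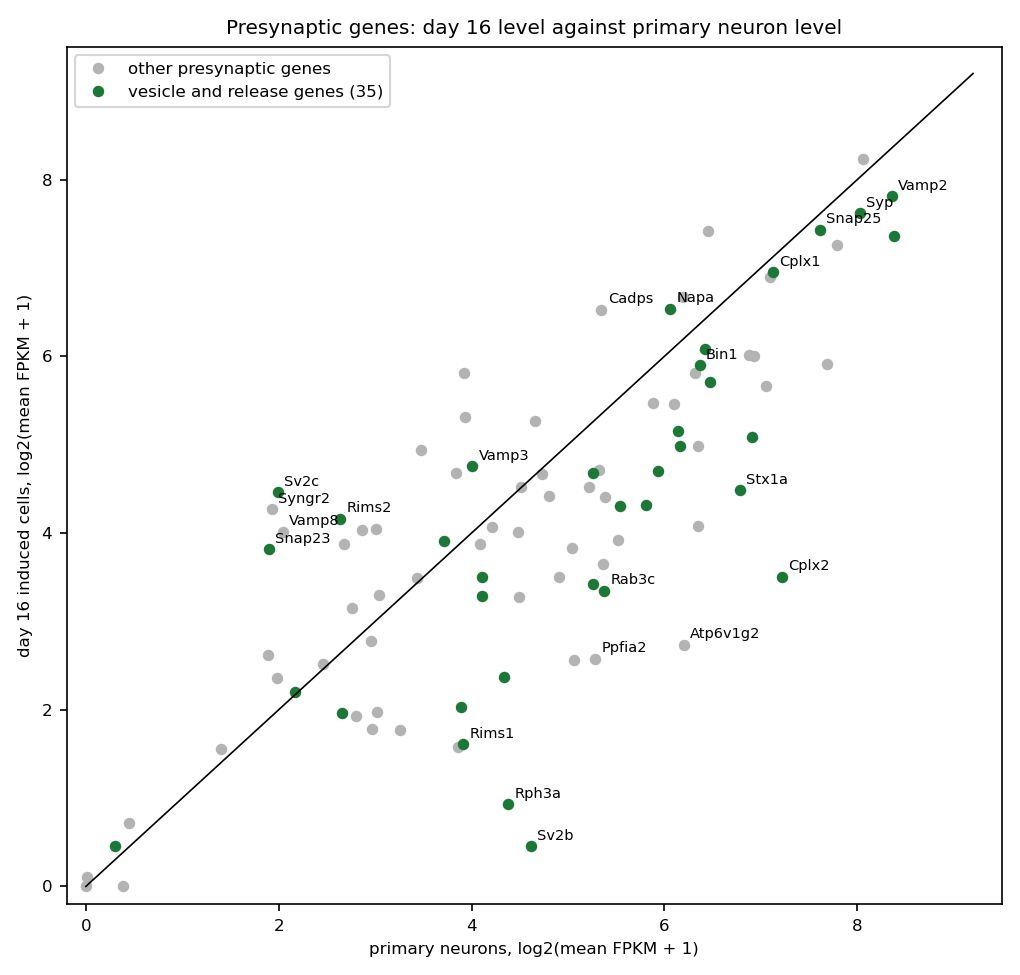
Level at day 16 (vertical axis) against primary neurons (horizontal axis), both as log2(mean FPKM + 1), for the 35 vesicle and release genes and other presynaptic genes; the line marks equal levels. Most of the 35 lie on or below the line, Cplx2, Sv2b and Rph3a lie far below it, and Snap23, Sv2c and Rims2 lie above.

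Markers of other cells moved with the same groups. The summed FPKM of 10 astrocyte markers ran from 715 to 1649 at D0, 456 to 532 at D4, 104 to 121 at D8, 55.4 to 68.2 at D16 and 149 to 272 in PN. The 7 neuroendocrine genes encode granins and prohormone convertases of dense-core vesicles. They summed to 93.5 to 121 FPKM at D0, 2690 to 3931 at D4 and 2903 to 4797 at D8. At D16 they summed to 2537 to 4203 FPKM, and in PN to 348 to 659. Vgf made up most of the sum at D4, D8 and D16. It averaged 3029 ± 745, 3106 ± 876 and 2302 ± 788 FPKM on these days and 84.6 ± 65.5 in PN. Of the 7 genes, 5 were called higher at D16 than in PN and 2 were not called. The 10 neuronal markers summed to 492 to 638 FPKM at D0, 923 to 1212 at D4 and 978 to 1360 at D8. Uchl1 alone averaged 619 ± 98.5 FPKM at D4 and 434 ± 26.3 at D16, so it made up much of this sum. Stmn2 went the other way, at 304 ± 50.2 FPKM at D0, 149 ± 24.3 at D4 and 213 ± 17.8 at D16. Against D0, 6 of the 10 were called higher and 1 lower at D4. At D16, 6 were called higher and 4 were not called. The 8 microglial markers summed to 2.38 to 4.65 FPKM at D16 and to 5.55 to 10.5 in PN. Cx3cr1, P2ry12 and Tyrobp were at 0 in all D16 libraries. Tmem119 went the other way and made up most of the D16 sum. It averaged 0.288 ± 0.123 FPKM at D0, 4.13 ± 0.397 at D4, 2.9 ± 0.732 at D16 and 0.00937 ± 0.0162 in PN. Of the 4 microglial markers tested, 1 was called higher and 3 lower at D16 than in PN. The 8 oligodendrocyte markers summed to 9.67 to 9.88 FPKM at D16 and 10.7 to 21.1 in PN, and the 6 endothelial and mural markers to 1.92 to 2.45 and 1.503 to 2.63. The part of these cell types, and of the greater depth of the PN libraries, in the differences described above was not tested.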

How the data were processed

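Gene expression was measured by paired-end RNA-seq of total RNA in 15 libraries (3 per group), and the values deposited by the authors are FPKM for 24346 gene symbols. The genome was mm10 (GRCm38), per the submitters' processing notes; the aligner, quantifier and annotation are not given in the sources used here. Library totals lay between 548309 and 787080 FPKM, and read counts were not used here.

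Values were analysed as log2(FPKM + 1). A single model with a mean for each group was fitted to the 15 libraries with limma 3.58.1 (R 4.3.3), with a variance trend and 10 residual degrees of freedom. The 13983 genes that reached 1 FPKM in at least 3 libraries were tested, with Benjamini-Hochberg adjustment over all of them in each of 10 comparisons. The procedure was tested on simulated data. Shares and exact tests used Python 3.11.15, numpy 2.4.6, pandas 2.3.3 and scipy 1.17.1, and figures matplotlib 3.10.9. Positions and promoters came from RefSeq GRCm38.p6.

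Whether replicate numbers pair the samples was checked by correlating deviations from group means. Same-number samples correlated at 0.329 to 0.454 between D4 and D8, and at -0.135 to 0.275 in the other comparisons, none with all 3 pairs above 0.1. Replicate 2 also had the greatest relative depth at D4 (1.63) and at D8 (1.71). What lies behind the D4 and D8 correlation was not tested. The unpaired model was kept. Values in every library are given for the member with the highest PN mean and the highest D16 mean in each role group and for members called between D16 and PN. Of the other presynaptic genes, up to 3 each way are named for D16 against PN and against D0, and 1 gene that this rule would name is not reported here. The members and lists were chosen with earlier results of these data known. Alternatives varied the pseudocount, filter, scaling, replicate block, samples in the fit, minimum change, average and libraries.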

Additional observations from a re-analysis of the deposited data

How the results depend on the processing

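The 10 counts of called members stayed within 1.5 times under every alternative except D8 against D4, where 4 members were called, 2 with equal FPKM totals and 2 to 5 with 1 library left out. Leaving out each library in turn gave 18 to 19 calls for D4 against D0, 22 to 24 for D8, 25 to 28 for D16 and 31 for PN. It gave 27 to 30 for D4 against PN, 23 to 26 for D8, 15 to 21 for D16, 0 for D16 against D8 and 12 to 17 for D16 against D4. With a replicate block the pairing changed no count of called members: 19, 23, 27 and 31 against D0 for D4, D8, D16 and PN, 28, 26 and 18 for D4, D8 and D16 against PN, and 4, 0 and 15 within the induced series. With no minimum change, 41 of the other presynaptic genes were called between D16 and PN in place of 26. The median share of the PN level at D16 (54.3%) was 50.6% with equal totals, 49.9% with a PN minimum of 5 FPKM and 45.8 to 64.3% with 1 library left out. The D4 and D8 medians ran from 20.8 to 29.6% and from 31.1 to 41.9%. Without D16 replicate 2 and PN replicate 3 together, an alternative chosen after seeing the data, the D16 median was 45.2%, Sv2a's composition difference from PN turned to 1.54 points and Bsn's change against PN to -0.11. The Rab3a composition difference was 8.34 points after quantile normalization (7.66 as reported). The Syp composition difference was -0.80 points without PN replicate 2, with a range of -0.80 to 1.83 over single libraries. Uncalled members also changed sign. With single libraries left out, Bin1 against D0 ran from -0.41 to 0.041, and against PN Snap25 ran from -0.43 to 0.20, Cplx1 from -0.39 to 0.090, Synpr from -0.73 to 0.14 and Vamp1 from -0.075 to 0.38. Bin1 at D16 against D0 was 0.0013 after quantile normalization, and 0.041 without D16 replicate 2 or without both doubted libraries. Snap25 against PN was 0.047 without D16 replicate 2 and 0.20 without PN replicate 2, where Cplx1 was 0.090 and Synpr 0.14. Vamp1 against PN was -0.0036 with equal totals, -0.17 after quantile normalization, and -0.031, -0.075 and -0.053 without D16 replicate 3, PN replicate 1 and PN replicate 3. The causes were not tested. Depth per library could be read only in relative terms, so no counting error is given for low values.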
